A study of Mus musculus with 14 samples.

Results

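The data describe wild-type (WT) effector CD8+ T cells of mice, sorted on day 6 of infection by the amount of KLRG1 on their surface. The comparison holds every array whose title names WT cells: 3 of WT KLRG1hi cells and 5 of WT KLRG1lo cells, 8 of the 14 arrays of the series. The other 6 are KLRG1lo cells of 3 knockout groups labelled Id2KO, BimKO and Id2KOBimKO (2 arrays per group). They entered the fit to estimate the spread between arrays, and their levels are given only beside those of the WT cells. All cells were OT-I, which means that they carried one T cell receptor against a peptide of ovalbumin, and the labels give the strain as C57BL/6J. The cells of all groups came from fetal liver chimeras, went into congenic recipients, and met Listeria that expressed ovalbumin on the following day. RNA went through 2 rounds of amplification before it was labelled with biotin, and each array holds 1 sort. The labels do not say whether replicate arrays stand for separate animals, and the tests therefore weigh differences against the spread of these samples only, which may be technical. In sorted bulk cells, fewer cells that express a gene and less of its RNA per cell cannot be told apart.

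During an infection, activated CD8+ T cells divide and part into short-lived effectors and into cells that can become memory cells. KLRG1, an inhibitory lectin-like receptor that binds cadherins, marks the first kind, while the receptor for IL-7 marks many of the second. KLRG1hi cells are known for high T-bet, granzymes and receptors that keep cells in the blood, and KLRG1lo cells for receptors that lead into lymphoid tissue.

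The groups are not alike in everything that was measured. Each array was described by its spread, which is the interquartile range of its log2 signals. It was 2.44, 2.67 and 2.84 on KLRG1hi arrays 1 to 3 and ran from 2.46 to 2.82 over the KLRG1lo arrays. Over all genes tested, which are not independent replicates, arrays correlated at 0.915 to 0.968 within KLRG1hi, at 0.945 to 0.983 within KLRG1lo and at 0.921 to 0.980 between the groups. The first principal component of the 8 WT arrays (50.6% of the variance) followed the spread, and the second (20.1%) parted KLRG1hi, at -27.2 to -3.4, from KLRG1lo, at 0.6 to 15.7. KLRG1lo arrays 3 to 5 also carried more transcripts of other cells. The mean log2 signal of the B cell markers tested was 6.47 to 6.80 there, against 5.48 to 5.62 on KLRG1lo arrays 1 and 2 and 5.16 to 5.59 on the KLRG1hi arrays. Monocyte and macrophage markers stood at 6.18 to 6.62 on KLRG1lo arrays 3 to 5, at 5.79 to 5.81 on arrays 1 and 2 and at 5.65 to 5.90 in KLRG1hi, and markers of neutrophils and red cell precursors were likewise highest on KLRG1lo arrays 3 to 5. By limma 0 of the 42 tested markers of these 4 cell types passed, and 11 had an unadjusted p under 0.05, of which 10 were lower in KLRG1hi. Of 11 T cell identity genes 0 passed by limma, and 1 was lower at an unadjusted p under 0.05. Cd8a had means of 11.64 in KLRG1hi and 11.47 in KLRG1lo, and Cd3e 10.66 and 10.65. The results are therefore also given against KLRG1lo arrays 1 and 2 alone and against arrays 3 to 5 alone, a split chosen after the data were seen.

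Of 14438 genes tested, 136 (0.942%) differed at a limma adjusted p under 0.05, the threshold used throughout. In KLRG1hi cells 98 genes were higher (0.679%) and 38 were lower (0.263%), while the median difference of all genes tested was 0.002 on the log2 scale. Folds ran from 1.47 to 27.2. For each of these genes the 3 KLRG1hi arrays lay entirely on one side of the 5 KLRG1lo arrays; arrays parted in this way for 2.41% of all genes tested with KLRG1hi above and for 1.77% with KLRG1hi below. The lists of classical effector and memory precursor genes held 18 of the higher and 8 of the lower genes, so 80 higher and 30 lower genes lay outside them. All 136 differences kept their sign against KLRG1lo arrays 1 and 2 alone and against arrays 3 to 5 alone, but the number past the threshold moved: 16 higher and 20 lower genes passed against arrays 1 and 2, and 214 higher and 41 lower genes against arrays 3 to 5. Of the 98 higher genes 84 were at least as high against arrays 3 to 5 alone as against all 5, and so rose less against arrays 1 and 2, while 27 of the 38 lower genes were at least as low against arrays 1 and 2 alone as against all 5.

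**Figure D1:**
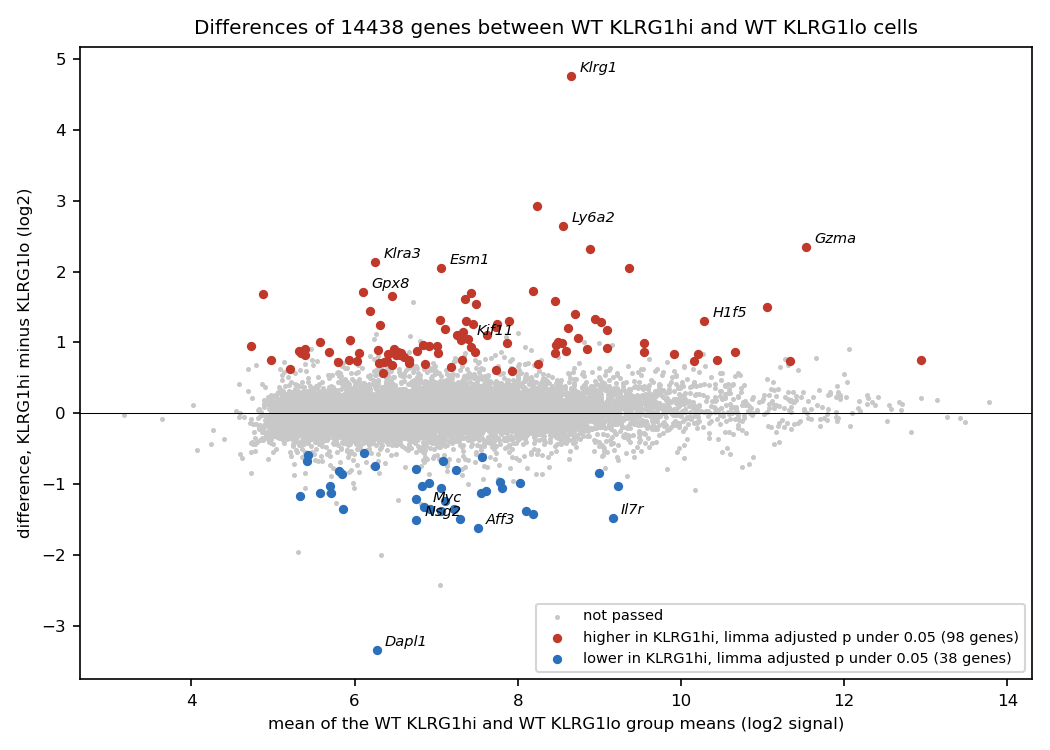
Each point is 1 of the 14438 genes tested; the x axis is the mean of both group means (log2 signal) and the y axis the difference of WT KLRG1hi minus WT KLRG1lo (log2). The 98 genes that passed as higher are red and the 38 that passed as lower are blue, with Klrg1 at the top and Dapl1 at the bottom.

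The gene of the sorted protein and 3 classical markers come first, as a check of the labels. The log2 signal of Klrg1 was 10.51, 11.09 and 11.52 on the KLRG1hi arrays and 6.11, 6.74, 6.39, 6.12 and 6.02 on the KLRG1lo arrays. Cx3cr1, the receptor for fractalkine, read 9.76, 10.61 and 10.78 against 8.21, 8.56, 8.02, 8.48 and 8.44. Gzma, a granzyme, read 12.54, 12.77 and 12.82 against 10.38, 10.63, 10.37, 10.41 and 10.04. Klrg1 follows from the sort itself and is no separate finding. Each of these 3 genes was higher on every KLRG1hi array than on any KLRG1lo array, and Gzma was also plainly measured in KLRG1lo cells. Il7r, the specific chain of the IL-7 receptor, read 8.15, 8.04 and 9.08 in KLRG1hi and 10.24, 10.15, 9.51, 9.72 and 9.88 in KLRG1lo, with no overlap and with KLRG1hi array 3 the nearest to the other group. Of the classical effector genes, the receptor S1pr5 rose by 1.72, the transcription factors Zeb2, Bhlhe40, Prdm1 and Tbx21 by 1.61, 1.54, 0.95 and 0.83, perforin (Prf1) by 1.18 and interferon gamma (Ifng) by 0.86. Of the memory precursor genes, the receptors Slamf6 and Cxcr5 fell by 1.43 and 1.17, and the transcription factor Myb fell by 1.35.

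Outside the classical markers, the list of the mitotic spindle and kinetochore held the most higher genes. The other lists of cell division are given with it. Of 49 genes tested that build the mitotic spindle and the kinetochore, 11 were higher in KLRG1hi and 0 were lower, 47 had a positive difference, and the median difference was 0.58. Of 46 cyclins, cell cycle kinases and checkpoint genes, 5 were higher and 0 lower, with a median of 0.31. Histones and condensins gave 3 higher and 0 lower of 28, with all 28 differences positive and a median of 0.40, and DNA replication and repair genes 1 higher and 0 lower of 53, with 49 positive and a median of 0.34. Together the 4 lists held 176 genes tested, of which 20 passed as higher and 163 had a positive difference. By limma 0 genes of the 4 lists were lower at an unadjusted p under 0.05 as well. Among all genes tested 0.679% passed as higher and 7286 of 14438 differences were positive. The medians of the 4 lists kept their sign in all 23 alternatives tried, as did those of 8 further lists, while the other 38 of the 50 list medians turned sign in at least 1 alternative.

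**Figure D2:**
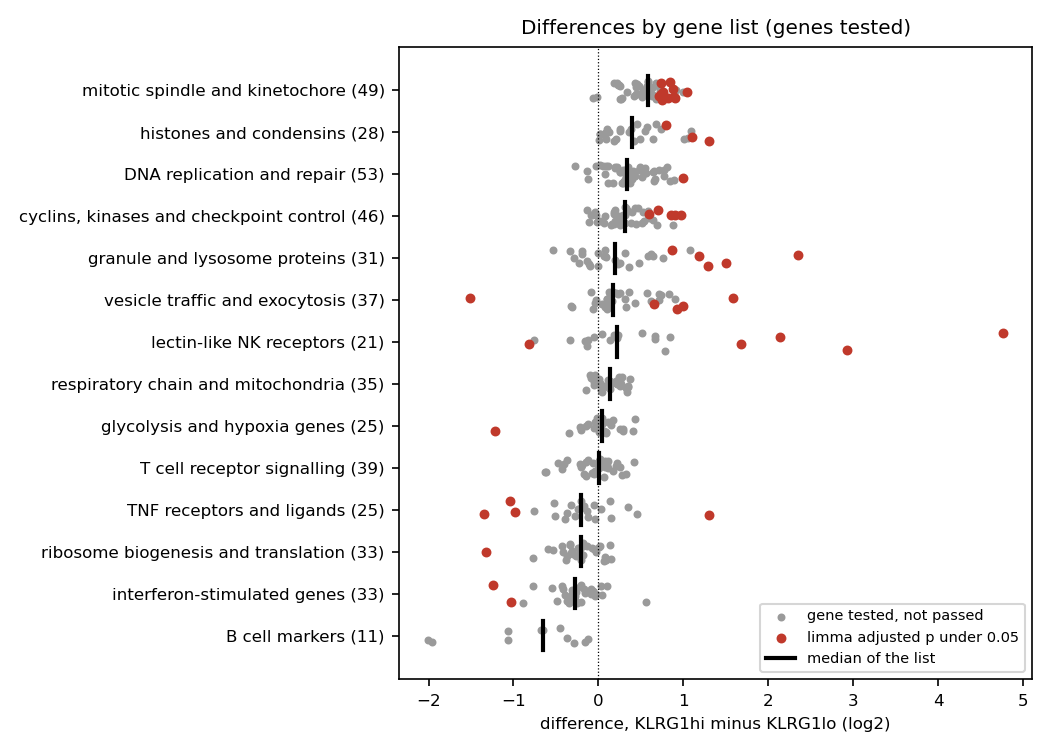
Differences (log2, KLRG1hi minus KLRG1lo) of the genes tested on 14 lists, with the number tested in parentheses; each point is a gene, red points passed the limma test, and the black bar is the list's median. The spindle list stands to the right of 0 with a median of 0.58, and the interferon-stimulated list to the left with a median of -0.27.

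Kif11, the motor protein that pushes the spindle poles apart, read 7.96, 7.98 and 7.82 on the KLRG1hi arrays and 7.13, 7.14, 6.57, 6.52 and 7.0 on the KLRG1lo arrays. It was higher by 1.05 (SE 0.19, limma adjusted p = 0.0107), and the lowest KLRG1hi array lay well above the highest KLRG1lo array. Nuf2, a subunit of the complex that ties kinetochores to microtubules, read 6.71, 6.90 and 7.20 against 6.08, 6.09, 5.71, 6.02 and 6.28. It had the smallest p of the spindle list, with a rise of 0.90 (SE 0.15, limma adjusted p = 0.00545). Prc1, which bundles microtubules at the midzone of dividing cells, read 7.39, 7.51 and 7.45 against 6.52, 6.81, 6.09, 6.92 and 6.67, so the KLRG1hi arrays were nearly equal while the KLRG1lo arrays ranged widely. Bub1b, a kinase-like protein of the spindle checkpoint, rose by 0.88 (SE 0.19), Knl1, the kinetochore scaffold, by 0.82, and Cdca8, a subunit of the chromosomal passenger complex, by 0.73. The remaining spindle genes that passed were Spc25, Tpx2, Kif18a, Kif22 and Racgap1, with rises of 0.71 to 0.89.

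Mki67, the proliferation antigen, read 9.31, 9.14 and 9.43 in KLRG1hi and 8.46, 8.44, 8.02, 8.41 and 8.64 in KLRG1lo. Its rise was 0.90 (SE 0.19, limma adjusted p = 0.0259). Top2a, the topoisomerase that untangles chromosomes, read 8.85, 9.10 and 8.92 against 8.27, 8.30, 7.61, 7.80 and 7.96 on its main probe set, a rise of 0.97. A second probe set of Top2a, with signal at background (3.27 and 3.33), showed no rise (-0.06). Cyclin A2 (Ccna2) rose by 0.85, its partner kinase Cdk1 by 0.71 and the transcription factor E2f2 by 0.59. In the histone list the linker histone gene H1f5 read 10.74, 11.11 and 10.95 against 10.12, 10.01, 9.38, 9.34 and 9.31, a rise of 1.30 (SE 0.21, limma adjusted p = 0.00437), and KLRG1lo arrays 1 and 2 lay above arrays 3 to 5. Histone genes of one family are near copies of each other, so their probes can share signal. H2ac15, the neighbour of H1f5 on chromosome 13 and a gene of another histone family, rose by 0.99. H2bc3, a histone H2B gene of the same list, read 7.73, 8.07 and 8.72 against 7.02, 7.40, 6.83, 7.06 and 7.06, a rise of 1.10 (SE 0.25, limma adjusted p = 0.0407), and H4c6, a histone H4 gene on none of the lists, rose by 1.33 (SE 0.22). The histone chaperone Asf1b rose by 0.99 and the condensin subunit Ncaph by 0.80.

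Further genes of division lay on none of the lists and are named here after their values were seen. Depdc1a, Shcbp1, Spag5, Tacc3 and Ska3, all genes of mitosis, rose by 0.75 to 1.01. Mastl, the Greatwall kinase, rose by 0.95, and Esco2 and Cdca5, which act on cohesin, by 0.88 and 0.57. Dtl and Clspn, of the replication checkpoint, rose by 0.85 and 0.68. Kif18a of the spindle list and several of these sat near background in KLRG1lo (mean signal 4.60 for Kif18a, 4.26 for Mastl and 5.07 for Depdc1a, where unnamed probe sets had medians of 5.01 to 5.39), so the size of their rise is uncertain.

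Over the 20 division genes of the lists that passed, the median SD of the KLRG1hi arrays was 0.16. Over the other 78 higher genes, which include the division genes on none of the lists, it was 0.33. Both sets were chosen by a test that favours a small spread, so these values give no trait of division genes. Among all 98 higher genes KLRG1hi array 1 was the lowest of its group in 75 and array 3 the highest in 62, which is also the order of their spread. The same shares over all genes tested were not computed, so these counts give no trait of the genes that passed. In a fit with the spread as a covariate, 27 spindle genes passed as higher. The spindle list's median was 0.51 against KLRG1lo arrays 1 and 2 alone and 0.63 against arrays 3 to 5 alone, and it stayed between 0.47 and 0.70 in all alternatives tried. Its calls did not stay: 0 spindle genes passed against KLRG1lo arrays 1 and 2 or with a replicate block, 1 without KLRG1hi array 2, 4 without KLRG1lo array 1 or 3, 3 without KLRG1lo array 4 or 5, and 2 with only the 8 WT arrays in the fit. The other lists moved more. Against KLRG1lo arrays 1 and 2 alone the median was 0.19 for cyclins and kinases, 0.14 for replication and repair and 0.22 for histones and condensins, and against arrays 3 to 5 alone it was 0.42, 0.48 and 0.54. In limma fits 0 genes of these 3 lists passed against KLRG1lo arrays 1 and 2, with the replicate block or without KLRG1hi array 2. At an unadjusted p under 0.05 the cyclin list then held 8, 16 and 13 higher genes, the replication list 3, 15 and 13 and the histone list 6, 8 and 9, while the spindle list held 30, 35 and 37. With KLRG1lo array 1, 3, 4 or 5 left out in turn, the cyclin list held 2, 0, 1 and 1 calls by limma, the histone list 1 each time and the replication list 1, 1, 0 and 1. Without KLRG1lo array 2 these lists held 7, 5 and 3.

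**Figure D3:**
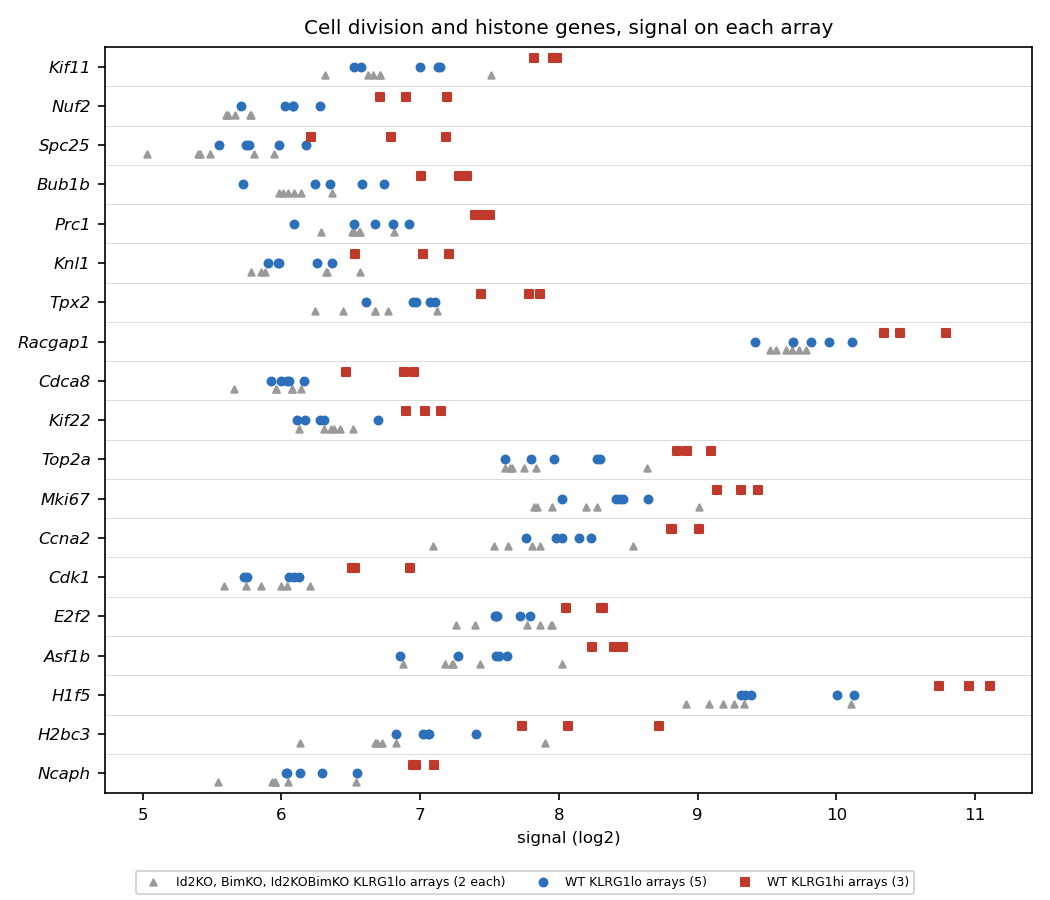
Log2 signal (x axis) of 19 genes of cell division on each array: red squares are the 3 WT KLRG1hi arrays, blue circles the 5 WT KLRG1lo arrays and grey triangles the 6 KLRG1lo arrays of the knockout groups. In each gene the red squares lie above all blue circles, as for Prc1, where they lie between 7.39 and 7.51.

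Promoters of many genes of mitosis carry a known pair of elements that time transcription to the end of the cell cycle. These are a cell cycle homology region (CHR, TTTGAA) and CCAAT boxes. The RefSeq table for assembly GRCm38.p6 held promoters, the 300 bases around a start of transcription, for 11427 of the genes tested. On either strand TTTGAA was found in 12.1% of the 14321 promoters of genes tested, in 34 of 97 (35.1%) of those of higher genes and in 8 of 33 (24.2%) of those of lower genes. It was found in 32 of the 49 promoters (65.3%) held for 43 spindle genes tested. For 10 spindle genes that passed it was found in 9 of 11 promoters (81.8%). These are counts of promoters: a gene with several starts, such as Prc1, counts more than once, and genes with no promoter held are left out. Most promoters of spindle genes thus carry the motif whether the gene passed or not. TTTGAA and CCAAT occurred together in 4.80% of all these promoters, in 23.7% of those of higher genes and in 53.1% of those of spindle genes tested. Examples that passed and hold both motifs, Kif11, Cdca8, Top2a and Cdk1, are printed 5′ to 3′ in the direction of the gene. The TTTGAA run and the CCAAT boxes, read on either strand, are in capitals. The promoter of Nuf2, which also passed, holds neither. In Cdca8 the 2 motifs share letters in the run TTTGAATTGG. A match is a run of letters and no measurement of a bound factor.
Kif11: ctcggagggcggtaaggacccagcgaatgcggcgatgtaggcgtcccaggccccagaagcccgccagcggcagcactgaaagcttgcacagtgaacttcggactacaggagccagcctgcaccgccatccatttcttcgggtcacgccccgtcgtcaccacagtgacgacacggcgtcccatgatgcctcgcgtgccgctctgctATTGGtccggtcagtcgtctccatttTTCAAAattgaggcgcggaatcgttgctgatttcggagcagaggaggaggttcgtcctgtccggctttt
Cdca8: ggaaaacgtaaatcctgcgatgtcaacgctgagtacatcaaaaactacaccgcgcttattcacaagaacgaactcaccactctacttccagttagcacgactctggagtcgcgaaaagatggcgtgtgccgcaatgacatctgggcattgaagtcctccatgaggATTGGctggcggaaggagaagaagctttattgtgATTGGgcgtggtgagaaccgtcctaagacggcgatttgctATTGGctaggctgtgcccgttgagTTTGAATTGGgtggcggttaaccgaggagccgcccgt
Top2a: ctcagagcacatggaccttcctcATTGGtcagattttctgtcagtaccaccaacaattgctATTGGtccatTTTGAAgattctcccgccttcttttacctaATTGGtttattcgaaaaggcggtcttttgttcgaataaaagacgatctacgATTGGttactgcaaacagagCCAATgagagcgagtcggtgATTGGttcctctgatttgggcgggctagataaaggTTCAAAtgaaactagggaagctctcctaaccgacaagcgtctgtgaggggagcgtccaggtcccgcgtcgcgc
Cdk1: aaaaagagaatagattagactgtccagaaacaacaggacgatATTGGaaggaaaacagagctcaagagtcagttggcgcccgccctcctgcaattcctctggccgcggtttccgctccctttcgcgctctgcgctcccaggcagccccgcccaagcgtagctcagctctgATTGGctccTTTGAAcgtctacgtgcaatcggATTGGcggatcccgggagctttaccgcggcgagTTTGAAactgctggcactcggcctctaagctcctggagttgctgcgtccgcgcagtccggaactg

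The higher genes outside cell division and the classical lists included genes of surface receptors, adhesion and vesicles. Lectin-like receptors of the NK family, some of which recognise MHC class I, gave 4 higher and 1 lower of 21 tested, with a median of 0.22. The 4 included Klrg1, the gene of the sorted protein, and Klrb1c of the classical list, so only Klra3 and Klre1 lay outside it. Klra3, of the Ly49 receptors, read 6.52, 7.41 and 8.02 in KLRG1hi and 5.28, 5.28, 5.06, 5.27 and 5.0 in KLRG1lo. It lay at background in KLRG1lo, and its probes may also read other members of this multigene family. Klre1 read 6.04, 5.73 and 5.38 against 4.09, 4.45, 3.73, 3.77 and 4.13, also at background in KLRG1lo and with KLRG1hi array 3 the lowest of its group, unlike most genes. Klrb1f, a neighbour of both Klrb1c and Klre1 on chromosome 6, went the other way and read 5.19, 5.42 and 5.59 in KLRG1hi against 6.02, 6.14, 6.32, 6.11 and 6.46 in KLRG1lo, a difference of -0.81 (SE 0.15, limma adjusted p = 0.0106). Because NK cells express these genes, a list of NK cell markers was read as well. Of the 10 NK markers measured, 7 were tested and 3 passed as higher (Klrb1c, Gzmb and Itga2). Klrb1c and Gzmb also stand on the classical effector list, so the NK list is not specific to NK cells. Of the 7 differences 6 were positive, with a median of 0.84. Fcer1g had means of 6.49 in KLRG1hi and 5.65 in KLRG1lo, Tyrobp 7.11 and 6.90, and Nfil3 6.57 and 6.33, none of which passed, while Ncr1, Klra8 and Klri2 lay below background on all WT arrays and Eomes read 9.25 in KLRG1hi and 9.34 in KLRG1lo. The summed linear signal of the list was 4751 to 6811 on KLRG1hi arrays and 2005 to 3036 on KLRG1lo arrays. That sum includes Gzmb, the brightest of the 10, with mean log2 signals of 11.80 in KLRG1hi and 10.30 in KLRG1lo. The part of NK cells in these differences was not tested.

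Ly6a2, of the Ly6 family of lipid-anchored surface proteins, had the largest rise outside the classical lists. Its arrays read 9.39, 9.64 and 10.62 in KLRG1hi and 7.34, 7.86, 7.50, 6.81 and 6.68 in KLRG1lo, a rise of 2.65 (SE 0.28, limma adjusted p = 4.9e-05). It was the only gene to pass among 14 tested genes of Ly6 and other lipid-anchored proteins, whose median was -0.21, and near copies in the family can share its probes. Cd244a, the SLAM family receptor 2B4, read 6.32, 6.62 and 7.81 against 5.25, 5.13, 5.53, 5.97 and 5.46, with KLRG1hi array 3 far above the other two of its group. Fcgr2b, the inhibitory receptor for IgG, read 6.44, 6.77 and 7.60 against 5.43, 5.68, 5.84, 5.81 and 5.66. B cells and macrophages also express Fcgr2b. Its rise was 1.38 against KLRG1lo arrays 1 and 2 and 1.17 against arrays 3 to 5, the arrays richer in markers of those cells. The part of such cells in this difference was not tested. Havcr2, the inhibitory receptor TIM-3, rose by 0.95. Entpd1, the ectoenzyme CD39 that breaks down ATP, rose by 1.03 and passed in 10 of 23 alternatives. Its limma adjusted p was 0.593 against KLRG1lo arrays 1 and 2 and 0.0554 against arrays 3 to 5. Btla, an inhibitory receptor of the same list, went the other way: it read 6.31, 6.57 and 6.72 in KLRG1hi and 7.71, 7.80, 7.39, 7.38 and 7.63 in KLRG1lo, a difference of -1.05 (SE 0.15, limma adjusted p = 0.00119). The list of inhibitory and costimulatory receptors, with 3 higher and 1 lower of 26 and a median of -0.13, thus held no common direction.

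Among chemokines and their receptors 4 genes were higher and 2 lower of 21 tested, with a median of 0.03. Of these only Ccl9 lay outside the classical lists. Ccl9, a chemokine, read 7.15, 6.96 and 7.73 in KLRG1hi and 5.32, 5.62, 5.44, 6.39 and 5.35 in KLRG1lo, where array 4 stood above the rest. Ccl5, Ccl9 and Ccl3 lie within a span of 5 tested genes on chromosome 11 and rose by 0.75, 1.65 and 1.18; Ccl6 and Ccl4, in or next to that span, differed by 0.23 and 0.61 and did not pass. Cmklr1, the receptor for chemerin, read 7.28, 8.01 and 7.81 against 6.23, 6.29, 6.39, 6.71 and 6.33, and it passed in all 23 alternatives tried. In the cytokine receptor list 2 genes were higher and 3 lower of 37, with a median of 0.00. Il18rap, a chain of the IL-18 receptor, rose by 0.86 (SE 0.18) next to Il12rb2 of the classical list. Il6st, the signal chain shared by receptors of the IL-6 family, read 7.08, 7.72 and 7.80 in KLRG1hi and 8.57, 8.99, 8.35, 8.31 and 8.40 in KLRG1lo, a difference of -0.99 (SE 0.18, limma adjusted p = 0.012). Its partner Il6ra fell by 0.62 (SE 0.14, limma adjusted p = 0.0387), from a mean of 7.87 to 7.25. Il6ra passed in 9 of 23 alternatives and in neither split of the KLRG1lo arrays (limma adjusted p = 0.217 against arrays 1 and 2 and 0.0878 against arrays 3 to 5).

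The integrin list gave 3 higher and 0 lower of 36 tested, with a median of 0.08. Besides Itgam these were Itga2 and Itga1, the alpha chains of 2 collagen receptors. Itga2 read 8.08, 8.25 and 8.81 in KLRG1hi and 7.07, 7.63, 6.57, 7.15 and 7.15 in KLRG1lo, and Itga1 read 7.83, 8.32 and 8.88 against 7.21, 7.37, 6.93, 7.09 and 7.06. Both were higher on every KLRG1hi array than on any KLRG1lo array, by 1.26 (SE 0.21) and 1.21 (SE 0.21). The genes for these integrins follow one another on chromosome 13, in a stretch of 12 consecutive tested genes of which 6 passed as higher. Among all genes tested 0.679% passed as higher. The stretch was drawn to begin and end on genes that passed, after their values were seen, so its count is no regional finding. A rule that joined passed genes at most 5 tested genes apart gave 2 separate runs here. The stretch opens with Gpx8, Gzma, Gzmk and Esm1, 4 neighbours that all passed. Gpx8, of the glutathione peroxidase family, read 6.44, 7.17 and 7.26 against 5.43, 5.07, 5.37, 5.23 and 5.12, with KLRG1lo at background. Esm1, a secreted proteoglycan, read 7.66, 8.03 and 8.58 against 5.78, 6.36, 5.90, 5.79 and 6.37, a rise of 2.05 (SE 0.21, limma adjusted p = 3.46e-05). The 6 genes between Esm1 and Itga2 did not pass and differed by -0.03 to 0.71, with Snx18, next to Esm1, at 0.71 (SE 0.17, limma adjusted p = 0.0628). Gene order was taken from GRCm38.p6, while the submitters' notes name mm9.

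**Figure D4:**
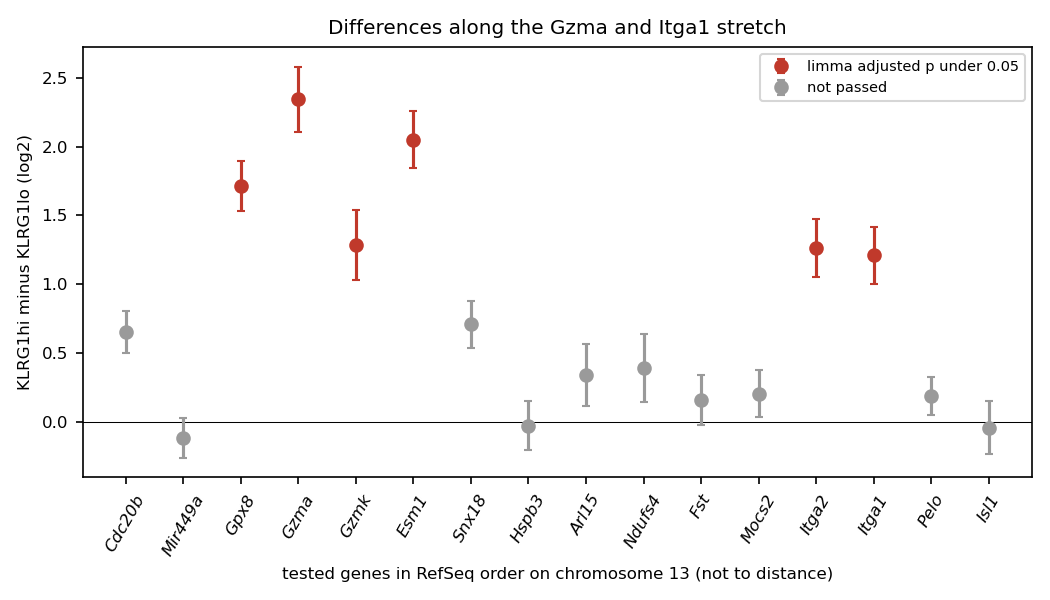
Difference of WT KLRG1hi minus WT KLRG1lo (log2, y axis; bars are the SE of the limma fit) for tested genes in their order along chromosome 13, from Cdc20b to Isl1. Red points passed: the 4 neighbours Gpx8, Gzma, Gzmk and Esm1, and the pair Itga2 and Itga1 after 6 genes that did not.

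Some genes of granules and vesicles were higher as well. Granule and lysosome proteins gave 5 higher and 0 lower of 31 (median 0.20), of which Serpinb9b, a serpin of the family that inhibits granzyme B, was the only one outside the classical list, with a rise of 0.86. The median of this list turned to -0.01 against KLRG1lo arrays 1 and 2 and to -0.15 with only the arrays of lower background (KLRG1hi and KLRG1lo arrays 1 and 2), and 2 genes passed in each of these fits. It was 0.07, with 2 genes passed, without KLRG1hi array 3, and 2 genes also passed without KLRG1hi array 2 or KLRG1lo array 4 or 5, 3 without KLRG1lo array 3 and 8 without KLRG1lo array 2. Vesicle traffic and exocytosis gave 4 higher and 1 lower of 37, with a median of 0.17. That median was -0.0022 with only the arrays of lower background and 0.76 with only those of higher background (KLRG1hi array 3 and KLRG1lo arrays 3 to 5). In limma fits 0 members passed as higher against KLRG1lo arrays 1 and 2 or with the replicate block, with 8 and 10 at an unadjusted p under 0.05, and 1 passed without KLRG1hi array 2 or KLRG1lo array 1, 3 or 5, 2 without KLRG1hi array 3 or KLRG1lo array 4, 7 without KLRG1lo array 2 and 8 without KLRG1hi array 1. Anxa1, a phospholipid-binding annexin, read 8.83, 9.05 and 9.87 in KLRG1hi and 7.95, 8.20, 7.34, 7.64 and 7.19 in KLRG1lo. Its rise was 1.17 against KLRG1lo arrays 1 and 2 and 1.86 against arrays 3 to 5, so 1.59 over all arrays depended on which KLRG1lo arrays were used. Lgals3 (galectin-3), Osbpl3 (an oxysterol-binding protein) and Snx10 (a sorting nexin) rose by 0.99, 0.92 and 0.65. Nsg2, a vesicle protein best known from neurons, was the lower member and read 5.56, 6.23 and 6.20 against 7.64, 7.81, 7.43, 7.32 and 7.36, a difference of -1.51 (SE 0.17, limma adjusted p = 0.000111). Smpdl3b, a membrane phosphodiesterase, Stard10, a lipid transfer protein, and Elovl7, an elongase of fatty acids, lay outside the lists, were picked after their values were seen and rose by 1.15, 1.01 and 0.84. The list of fatty acid and sterol metabolism gave 0 genes passed by limma of 44 tested, 5 at an unadjusted p under 0.05 and a median of 0.04. Fgl2, a secreted fibrinogen-like protein, rose by 1.30, and Car5b, a mitochondrial carbonic anhydrase, by 1.20. Rap1b, a small GTPase of integrin control, rose by 0.74, and Rap1gap2, of the proteins that switch Rap off, by 1.06 (limma adjusted p = 0.0022). Apobec2, of the cytidine deaminase family, read 7.34, 8.11 and 7.99 against 6.87, 7.02, 6.15, 6.70 and 6.78, and on the Id2KO KLRG1lo arrays it read 8.05 and 8.09, within the range of the KLRG1hi arrays.

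**Figure D5:**
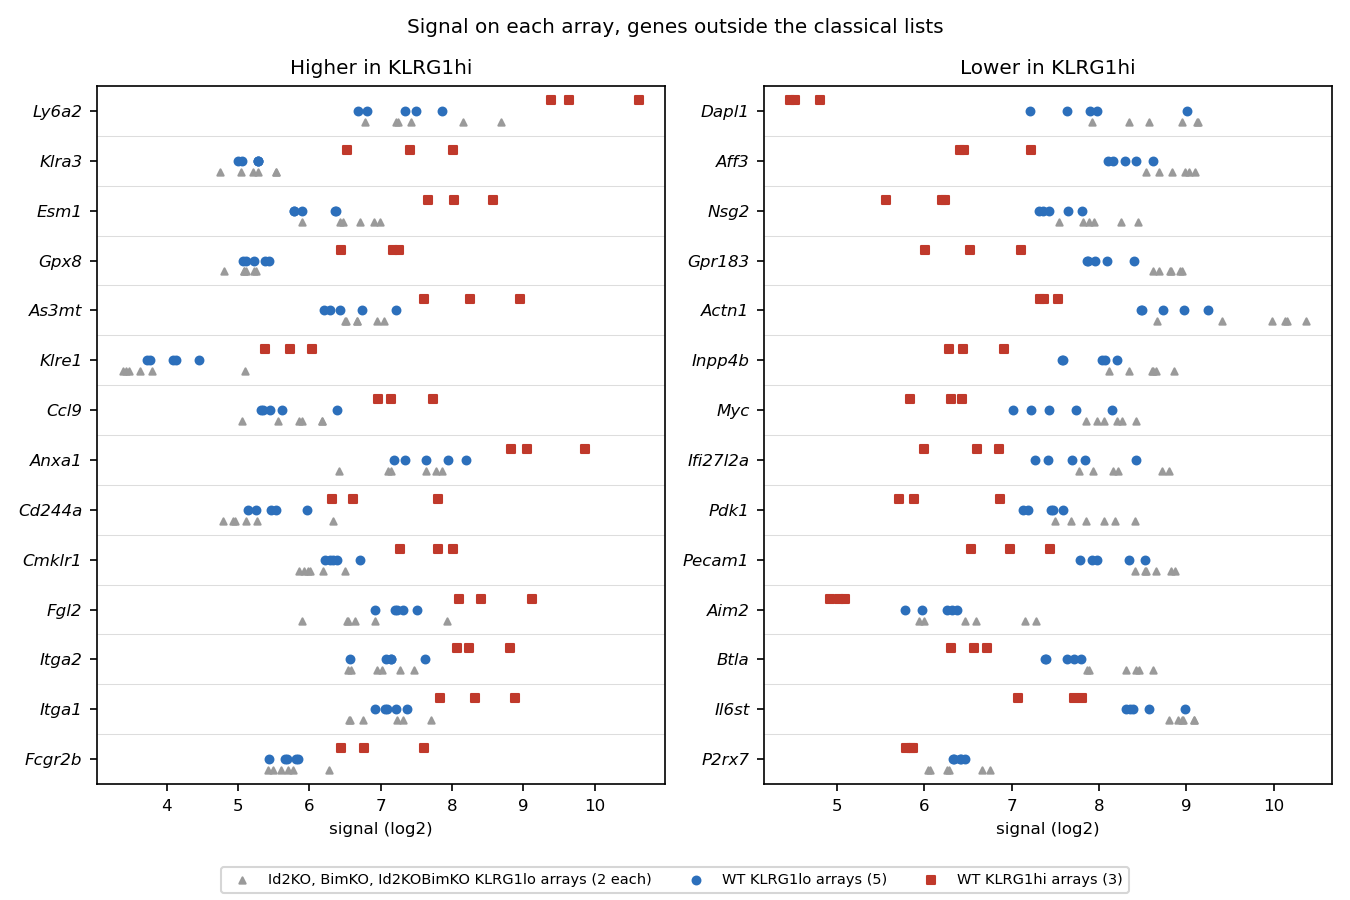
Log2 signal (x axis) of 14 higher genes (left) and 14 lower genes (right) outside the classical lists on each array; red squares are WT KLRG1hi, blue circles WT KLRG1lo and grey triangles the 6 knockout KLRG1lo arrays. Red and blue do not overlap in any gene shown, with the widest gap for Dapl1, at most 4.80 in KLRG1hi and at least 7.21 in WT KLRG1lo.

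Dapl1 (death-associated protein-like 1) had the largest fall. It read 4.52, 4.46 and 4.80 on the KLRG1hi arrays and 7.97, 9.01, 7.63, 7.21 and 7.89 on the KLRG1lo arrays, a difference of -3.35 (SE 0.30, limma adjusted p = 1.21e-05). In KLRG1hi it lay under the signal of unnamed probe sets, so the difference ends at background and its size is a fitted value. The knockout KLRG1lo arrays read 7.92 to 9.14. Aff3, a nuclear protein of the transcription elongation complexes, read 6.41, 6.46 and 7.22 against 8.30, 8.62, 8.10, 8.16 and 8.43, a difference of -1.63 (SE 0.18). B cells also express Aff3. Its difference was -1.77 against KLRG1lo arrays 1 and 2 and -1.53 against arrays 3 to 5, which carried more B cell transcripts. The part of B cells in this difference was not tested.

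The lower genes included receptors and adhesion proteins. G protein-coupled receptors gave 1 higher and 3 lower of 26 tested, with a median of 0.10. Gpr183, the oxysterol receptor, read 6.01, 6.52 and 7.11 in KLRG1hi and 8.10, 8.40, 7.86, 7.96 and 7.87 in KLRG1lo. Gpr55 and Cnr2, receptors for lysophospholipids and for cannabinoids, fell by 1.03 and 0.67, both to a signal at background. Gpr55 passed in 10 of 23 alternatives. Its limma adjusted p was 0.191 against KLRG1lo arrays 1 and 2 and 0.0621 against arrays 3 to 5. TNF receptors and ligands gave 1 higher and 3 lower of 25, with a median of -0.20, and Tnfrsf26, a receptor of this family, fell by 0.98 (SE 0.20) beside Tnfsf8 and Ltb of the classical list. Pecam1, an adhesion receptor with inhibitory motifs, read 6.54, 6.98 and 7.44 against 8.35, 8.53, 7.98, 7.78 and 7.92, a difference of -1.13 (SE 0.20, limma adjusted p = 0.00977). It fell by 1.45 against KLRG1lo arrays 1 and 2 alone and by 0.91 against arrays 3 to 5 alone. Actn1, the actin cross-linker alpha-actinin, read 7.37, 7.33 and 7.53 against 8.98, 9.25, 8.49, 8.48 and 8.74, and it was the only gene to pass among 54 of the actin and adhesion cytoskeleton, whose median was 0.16. P2rx7, a channel opened by extracellular ATP, fell by 0.56 (SE 0.12) with arrays that read 5.87, 5.85 and 5.78 against 6.47, 6.41, 6.42, 6.33 and 6.34. P2rx7 passed in 11 of 23 alternatives. Its limma adjusted p was 0.259 against KLRG1lo arrays 1 and 2 and 0.0663 against arrays 3 to 5. Entpd1 and P2rx7 were the only genes to pass of 10 tested for ectoenzymes and purine handling, 1 in each direction.

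Signalling and metabolic enzymes fell in small numbers. Inpp4b, a phosphatase that removes a phosphate from phosphoinositides, read 6.44, 6.28 and 6.91 in KLRG1hi and 7.58, 8.04, 8.07, 7.59 and 8.20 in KLRG1lo, a difference of -1.35 (SE 0.20, limma adjusted p = 0.00171). It was the only gene to pass of 27 phosphoinositide enzymes, whose median was 0.07. Insr, the insulin receptor, fell by 0.86 (SE 0.18) on its main probe set and by 0.35 on a second one. Pdk1, the kinase that holds back pyruvate dehydrogenase, read 5.71, 5.88 and 6.86 against 7.18, 7.59, 7.47, 7.13 and 7.45, with KLRG1hi array 3 close to the KLRG1lo arrays. It was the only gene to pass of 25 glycolysis and hypoxia genes, with a median of 0.04, and by limma 0 of 35 respiratory chain genes passed, with 0 at an unadjusted p under 0.05 and a median of 0.13. Among 39 genes of T cell receptor signalling 0 passed by limma, 1 was higher and 4 were lower at an unadjusted p under 0.05, and the median was 0.00. The smallest p belonged to Cd5, a receptor that dampens the signal, at -0.63 (limma adjusted p = 0.0913).

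Myc, the growth regulator, read 5.83, 6.44 and 6.31 in KLRG1hi and 7.73, 8.16, 7.42, 7.02 and 7.22 in KLRG1lo, a difference of -1.32 (SE 0.22, limma adjusted p = 0.0056). It passed in all 23 alternatives and fell by 1.75 against KLRG1lo arrays 1 and 2 and by 1.03 against arrays 3 to 5. Myc was the only gene to pass of 33 genes of ribosome biogenesis and translation, the list it also belongs to, of which 26 had a negative difference and whose median was -0.21. That median was -0.43 against KLRG1lo arrays 1 and 2, -0.09 against arrays 3 to 5 and 0.09, of the other sign, with only the arrays of higher background. Tsr1, a ribosome assembly factor of that list, read lower by 0.77 on average, and that difference did not pass (limma adjusted p = 0.098). Myc and the division genes thus passed in opposite directions in the same comparison.

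Interferon-stimulated genes gave 0 higher and 2 lower of 33 tested, with 29 negative differences and a median of -0.27. Rtp4 read 6.29, 6.21 and 6.43 in KLRG1hi and 7.19, 7.80, 7.18, 7.04 and 7.48 in KLRG1lo, a difference of -1.03 (SE 0.18, limma adjusted p = 0.00974). Ifi27l2a read 6.00, 6.86 and 6.60 against 7.70, 8.42, 7.42, 7.27 and 7.84, a difference of -1.24 (SE 0.26). Both are induced by type I interferon, and on both genes KLRG1lo array 2 read the highest. Gbp9, a guanylate-binding protein, Aim2, a sensor of cytosolic DNA, and Rnf213, a large ubiquitin ligase, lay outside the list and fell by 1.10, 1.12 and 0.84. Ssbp2, a DNA-binding protein on none of the lists, fell by 0.81 (SE 0.15, limma adjusted p = 0.0106). Aim2 read 4.92, 5.09 and 5.02 against 5.78, 6.32, 6.37, 6.25 and 5.97, with KLRG1hi at background. Isg20, an exonuclease of the list, had a difference of -0.49 that did not pass (limma adjusted p = 0.302). The list's median was -0.40 against KLRG1lo arrays 1 and 2 and -0.14 against arrays 3 to 5, and it turned to 0.14 with only the arrays of higher background.

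Levels in the 6 knockout KLRG1lo arrays are given beside those of the WT cells. Esm1 read 5.90 to 6.99 there, Itga1 6.56 to 7.70, Kif11 6.32 to 7.51 and Prc1 6.28 to 6.81. In these genes the knockout arrays lay below every KLRG1hi array. All genes that passed were read in the same way. In each the KLRG1hi arrays already lay apart from the WT KLRG1lo arrays, and the knockout arrays entered the fit. The share over all genes tested was not computed, so the count that follows is no separate support. The 6 knockout arrays lay on the KLRG1lo side of every KLRG1hi array for 86 of 98 higher and 38 of 38 lower genes. The 12 exceptions were Knl1, Kif18a, Kntc1, H2ac15, H2bc3, Cd244a, Entpd1 and Fasl in BimKO, Gzmk and Sema4f in Id2KO, Smpdl3b in both, and Apobec2 in Id2KO and Id2KOBimKO. The first 5 of these are genes of cell division or histones. Klre1 read 3.38 to 5.10, all below the KLRG1hi arrays, and Fasl 6.05 to 7.81, where 1 BimKO array, at 7.81, lay within the KLRG1hi range of 7.68 to 8.48. Actn1 read 8.66 to 10.37 and Myc 7.85 to 8.43, above every KLRG1hi array.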

How the data were processed

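The deposited values are linear intensities per probe set. Per the submitters' processing notes the authors made them with RMA (no version given), and mm9 is named. Scanner files were not used here. Values were turned into log2 with no offset; their scale was read from the values. Of 34760 probe sets, 21640 name 1 gene, 1321 several and 11799 none; 21553 names were updated by Entrez number with the RefSeq names of GRCm38.p6. Each of 19937 genes was read from its brightest probe set over all arrays, and 14438 with signal above the array's 40th percentile on at least 2 arrays were tested. Limma 3.58.1 (R 4.3.3, with version 1.17.8 of data.table) fitted 5 group means to all 14 arrays (9 residual and 7.99 prior degrees of freedom), two-sided, with Benjamini-Hochberg adjustment over all genes tested; every p for a gene is such an adjusted p unless called unadjusted. The fit was tested on simulated data. Figures were drawn with matplotlib 3.10.9 in Python 3.11.15.

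The groups, the 50 lists and the tests were chosen with earlier results of these data known. Named were Klrg1, Cx3cr1, Gzma and Il7r; outside the classical effector, memory and T cell identity lists, the 25 largest rises and 25 largest falls that passed with arrays that do not overlap; every other list member that passed; and the members of each list with the smallest p, 3 at most, of which those that did not pass are mostly left out of the text. Others were chosen after their values were seen, among them chromosomal neighbours. The lists overlap. Of 1569 genes listed, 1330 were tested. Low and high background arrays are 2 sets parted by the median of unnamed probe sets (low: KLRG1hi and KLRG1lo arrays 1 and 2, Id2KO array 1 and Id2KOBimKO array 1; high: the other 8). Alternatives were no filter, a stricter one (60th percentile), an offset of 16, quantile normalization, averaged probe sets, a replicate block, a robust fit with trended variance, fewer arrays or other comparators, a fold of at least 1.5, the spread as a covariate, array weights and each array left out. Replicate numbers were checked for pairing by the correlation of same-numbered arrays, which could not settle it.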

Additional observations from a re-analysis of the deposited data

Results flagged for a closer look

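In 4 of the 139 genes looked at, 1 of the 5 KLRG1lo arrays stood apart from the other 4 by Dixon's criterion at 95%. Chance alone flags about 1 in 20 groups. Ccl9 read 6.39 on KLRG1lo array 4 and at most 5.62 on the others. Fasl read 7.17 on KLRG1lo array 2, where the next array read 6.66. Tnfsf8 read 6.81 on KLRG1lo array 5, with the next at 6.50, and Vwa5a read 5.57 on KLRG1lo array 3, with the next at 6.30. All 4 genes passed, and in each the array that stood apart lay on the KLRG1lo side of every KLRG1hi array. Both points follow from the choice of genes. Nearly all genes looked at had passed, and in every gene that passed the WT groups did not overlap.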

How the results depend on the processing

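Against 98 higher and 38 lower genes, quantile normalization gave 155 and 71, array spread as a covariate 223 and 153, and array weights (gene by gene) 692 and 444. Only the low background arrays gave 51 and 209, only the high background arrays, where 1 KLRG1hi array stands alone, 1180 and 208, and the mean of the 4 KLRG1lo groups as the comparator 221 and 227. Only the 8 WT arrays gave 52 higher. Alternatives chosen after the data were seen gave 16 and 20 with only KLRG1lo arrays 1 and 2, and 214 higher with arrays 3 to 5. With 1 array left out, higher genes ran from 28 (without KLRG1hi array 2) to 144 (without KLRG1hi array 1) and lower genes from 17 (without KLRG1hi array 2) to 103 (without KLRG1hi array 3). The cause of these shifts was not tested.

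A replicate block left 25 higher and 17 lower genes. Deviations of same-numbered arrays correlated at -0.185, 0.061 and -0.524. So few values cannot show whether the numbers pair arrays, and the labels do not say. Same-numbered WT KLRG1hi and WT KLRG1lo arrays lay in the same background set. The block was used only as an alternative.

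Of the 136 genes, 27 passed in all 23 alternatives, 87 in at least 15 and 6 in fewer than 10; none changed sign in any alternative tried. These 6 were Il6ra, Esco2, Cdca5, Bach2, Rnf213 and Plekha1. The number of arrays limits the precision, and signal limits the size of 12 differences with KLRG1lo and 10 with KLRG1hi at or below background.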

Other observations

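Further genes passed on lists with at most 2 calls or on none. As3mt, a methyltransferase for arsenic, read 7.61, 8.26 and 8.96 in KLRG1hi and 6.43, 7.21, 6.20, 6.29 and 6.74 in KLRG1lo, a rise of 1.70 (SE 0.26, limma adjusted p = 0.00267). Fam78b rose by 1.03 and passed in all 23 alternatives tried, with 6.30, 6.52 and 6.56 against 5.36, 5.45, 5.58, 5.62 and 5.13. Dapk2, a kinase of cell death and autophagy, rose by 1.26, Arsb, a lysosomal sulfatase, by 0.87 and by 0.88 on a second probe set, and Ern1, the IRE1 sensor of unfolded proteins, by 0.86. Galnt3, which starts O-linked glycans, rose by 0.93, Pde8a, a cyclic AMP phosphodiesterase, by 0.73, and the cytoskeletal genes Stmn1 and Septin11 by 0.88 and 0.84. Among lower genes, Cd2ap, an adaptor of actin and CD2, read 6.61, 6.18 and 6.46 against 7.30, 7.32, 7.40, 7.75 and 7.24, a difference of -0.98 (SE 0.17, limma adjusted p = 0.0056), and Slc43a1, a transporter of large neutral amino acids, fell by 0.74 (SE 0.15).

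Some neighbours on a chromosome passed in opposite directions. Fchsd2, a protein that bends membranes, fell by 1.05 (SE 0.16) and Stard10, within a span of 3 tested genes of it on chromosome 7, rose by 1.01 (SE 0.20). Top2a rose and Ccr7 fell within a span of 4 tested genes on chromosome 11. Bach2 and Mdn1, the latter a large ATPase of ribosome assembly, both fell within 4 tested genes on chromosome 4, by 0.67 and 0.78.

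By limma 0 genes passed on the lists of solute carriers (30 tested, median -0.08), of ubiquitin ligases and TRAF proteins (33, median -0.08), of protein phosphatases and MAP kinase control (44, median 0.01), of Wnt and Notch genes (34, median -0.02) and of TGF-beta responsive genes (17, median -0.01). At an unadjusted p under 0.05 these lists held 3, 6, 8, 7 and 1 genes in that order.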
